A study of Mus musculus with 56 samples.

Results

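The last 8 h of the food-free dark phase were examined in visceral adipose tissue (VAT) of mice under daytime-restricted feeding (DRF). The 4 DRF libraries of zeitgeber time (ZT, hours after lights-on) 24 were set against the 4 of ZT16, so that 8 of the 56 VAT libraries of the study enter the main comparison. Libraries were chosen by their labels alone. The 4 DRF libraries of ZT20 served only to place the midpoint. Each library holds polyadenylated RNA from female C57BL/6J mice, 9 weeks old, kept in 12 h light and 12 h dark and on the regimen for 7 days, and the labels name no genetic change and no other treatment. Under DRF chow was given in the light phase, which inverts the usual night-time eating of mice. The exact hours at which food was given and removed are not given in the sources used here. Counted from lights-off, ZT16, ZT20 and ZT24 lie 4, 8 and 12 h into the dark, food-free phase. Time without food and clock time advance together in these groups, so the effects of the 2 cannot be told apart within DRF. The closest matching interval in the study is ZT4 to ZT12 under nighttime-restricted feeding (NRF), the control regimen, in which 4 and 12 h of the food-free light phase had passed (8 libraries, same strain, sex and age).

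White adipose tissue switches between storage and release of lipid. In the fed state insulin drives glucose uptake, de novo lipogenesis and the sterol regulatory element-binding proteins (SREBPs), while in fasting catecholamines act through protein kinase A to release fatty acids from the lipid droplet by the lipases encoded by Pnpla2 and Lipe. Part of the released fatty acid is re-esterified in the same cell on glycerol made by glyceroneogenesis. The same tissue carries a circadian clock, a feedback loop in which ARNTL and CLOCK drive Per, Cry and Nr1d genes, and heat shock factor 1 adds chaperone transcripts that follow body temperature and feeding.

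All values below are normalised read counts as CPM, recovered from the deposited values. CPM here is reads per 1e6 of the effective library size that the deposited values imply, not of the recovered reads. Fold changes are differences of means on the log2(CPM + 1) scale with their standard errors (SE). A gene passed at a Benjamini-Hochberg adjusted p under 0.05 in limma, with all tested genes adjusted together. The 8 libraries held 31.1 M to 41.2 M recovered reads on genes (M, 1e6 reads), and their effective sizes were 31.8 M to 43.2 M. Mitochondrial transcripts took 5.82% to 7.95% of the reads, and the median correlation of a library with the others of its group was 0.99127 to 0.99316. Pairs of libraries within a group differed by more than counting noise (chi-square per degree of freedom of 19.3 to 61.8). The first principal component of the 12 DRF libraries, with 25.7% of the variance, placed every ZT16 library below every ZT24 library. The second, with 21.2%, set ZT20 replicate 1 (-27.5) and ZT24 replicate 1 (-24.95) below all others (-3.387 to 21.28). Adipocyte markers were by far the most abundant of the marker sets in every library. Markers of B and T lymphocytes summed to 7.60 to 16.4 CPM, and 1 of the 4 exocrine pancreas markers matched by symbol was high enough to be tested.

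Between ZT16 and ZT24, 660 of the 17126 genes tested rose and 613 fell. The calls make up 3.85% and 3.58% of the genes tested (7.43% in either direction), the background against which the counts of gene groups are read here. The median change of all genes was 0.0016. Of the called genes 37 rose and 51 fell by at least 1 on the log2 scale. In 1227 of the 1273 the libraries of the groups did not overlap. Of all genes tested, called or not, 2786 (16.3%) had groups that did not overlap. Genes are called for such separation, so the count of 1227 only describes the called genes. The numbers of calls fell when single libraries were left out, to between 355 and 622 higher and between 299 and 515 lower genes. Higher calls dropped by more than 1.5 times without ZT16 replicate 1 (355), 3 (393) or 4 (408) or without ZT24 replicate 2 (395) or 4 (427), and lower calls without ZT16 replicate 1 (299), 3 (359) or 4 (346) or ZT24 replicate 2 (343). A set of 521 genes, 284 higher and 237 lower, passed with the same sign in all 8 of these fits. Keeping the per-library rescaling of the deposited values turned the split into 463 higher and 869 lower genes (34.8% higher, against 51.8%).

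**Figure D1:**
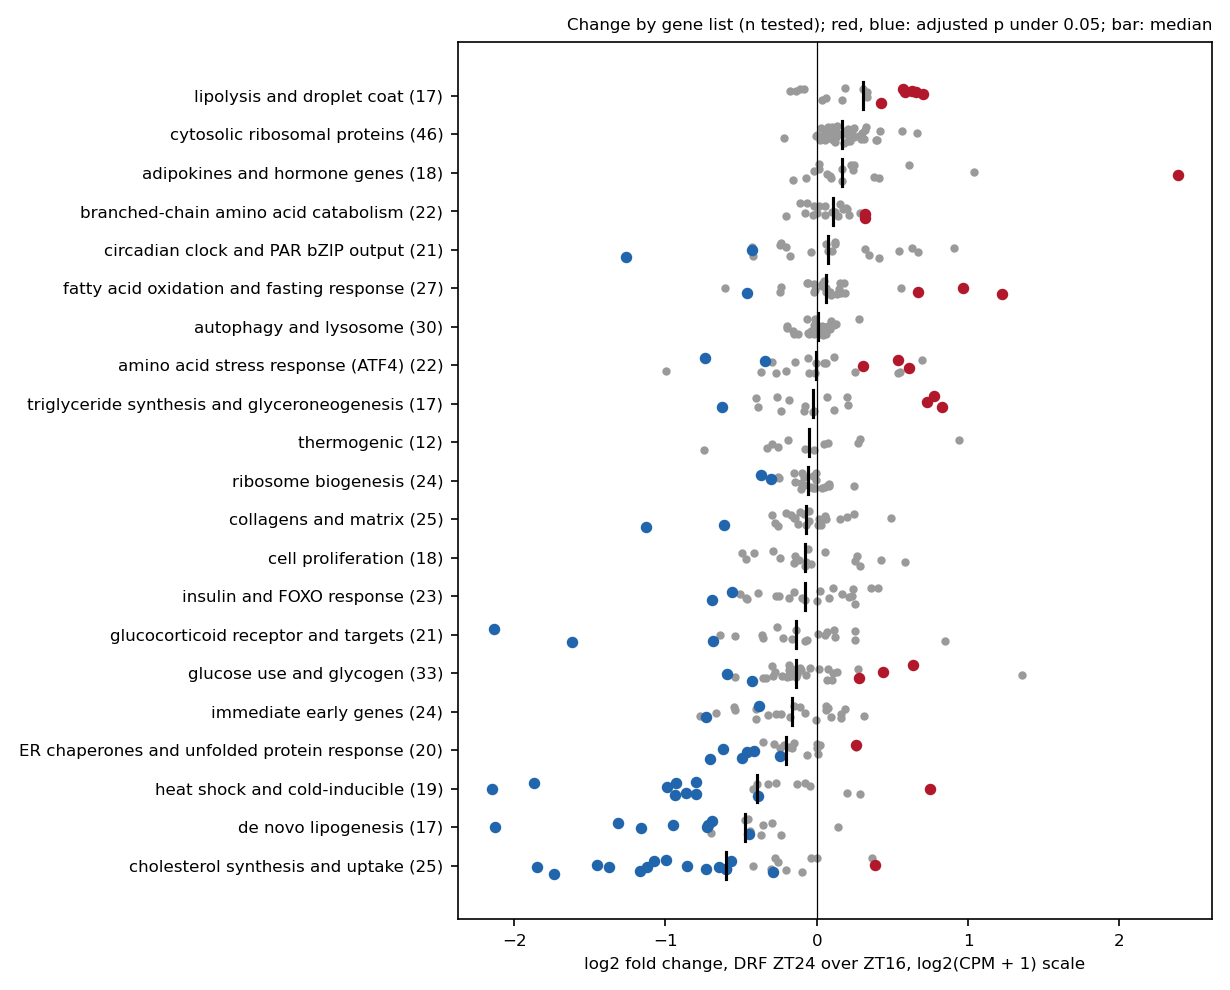
Log2 fold change of DRF ZT24 over ZT16 (horizontal axis, log2(CPM + 1) scale) for every tested gene of 21 gene lists, ordered by the list median (black bar), with the number of tested genes in brackets. Red and blue points passed at an adjusted p under 0.05, grey points did not, and the lists of cholesterol synthesis, de novo lipogenesis and heat shock hold 15, 8 and 9 blue points.

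Several chaperones of the heat shock response fell. Of the 19 genes of the heat shock and cold-inducible list, 9 fell, 1 rose and 9 did not pass, with a median change of -0.39. Hspa8 (chr9:40800984-40810087 in GRCm38), which encodes the constitutive cytosolic HSP70, had the smallest adjusted p of all genes tested. Its values were 1843, 1597, 1889 and 1707 CPM at ZT16 and 440.4, 498, 550.5 and 441 CPM at ZT24. Every ZT16 library thus lay far above every ZT24 library, and Hspa8 fell by 1.87 ± 0.11 (SE, n = 4 per group, adjusted p = 3.16e-05). Hsph1 (chr5:149614287-149636376), the HSP110 nucleotide exchange factor that works with HSP70, stood at 125, 109, 147 and 127 CPM at ZT16 and at 20.2, 36.5, 27.2 and 29.5 CPM at ZT24. The ranges were again separate, and Hsph1 fell by 2.15 ± 0.15 (adjusted p = 5.43e-05). Dnaja1, a J-domain partner of HSP70, fell from 345, 300.1, 344 and 323 CPM to 148, 174, 177 and 185 CPM, a change of -0.94 ± 0.09 (adjusted p = 0.000261). Chordc1, an HSP90 cochaperone, changed by -0.93 ± 0.10 (adjusted p = 0.000679).

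The inducible HSP70 genes were low but moved the same way. Hspa1a (chr17:34969190-34972156) had 6.03, 6.66, 5.64 and 5.79 CPM at ZT16 and 1.71, 3.49, 2.76 and 2.44 CPM at ZT24, a fall by 0.99 ± 0.15 (adjusted p = 0.0039). The call of Hspa1a was lost with ZT0 in place of ZT24 (change -0.38, adjusted p = 0.553). Its near-identical neighbour Hspa1b changed by -0.87, and reads of the pair could be split between them in counting. Hspa4l, the collagen chaperone Serpinh1 and the cochaperone Bag3 also fell, by 0.80, 0.80 and 0.39. The 1 member that rose was Cirbp, an RNA-binding protein induced by mild cold. It had 25.1, 23.7, 21.4 and 21 CPM at ZT16 and 51.4, 36.7, 39.2 and 30.9 CPM at ZT24 and rose by 0.75 ± 0.13 (adjusted p = 0.00796). Rbm3, the other cold-inducible gene listed, had a change of 0.20 ± 0.07 and did not pass (adjusted p = 0.118). The number of falling members was 9 to 11 when 1 library was left out, and body temperature was not analysed here.

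Promoters of 2 of the falling chaperones are shown for the heat shock elements they hold. The windows run from 250 bases before to 50 bases after the annotated start (RefSeq, GRCm38.p6), read 5′ to 3′ on the strand of the gene. Capitals mark the heat shock element pairs GAANNTTC and TTCNNGAA, which overlap where pairs follow each other.
Hsph1: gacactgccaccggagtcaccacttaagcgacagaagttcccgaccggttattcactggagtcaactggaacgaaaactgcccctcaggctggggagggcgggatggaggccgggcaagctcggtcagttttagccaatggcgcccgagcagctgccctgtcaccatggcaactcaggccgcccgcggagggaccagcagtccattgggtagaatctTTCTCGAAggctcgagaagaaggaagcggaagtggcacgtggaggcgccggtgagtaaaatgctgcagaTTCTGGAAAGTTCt
Chordc1: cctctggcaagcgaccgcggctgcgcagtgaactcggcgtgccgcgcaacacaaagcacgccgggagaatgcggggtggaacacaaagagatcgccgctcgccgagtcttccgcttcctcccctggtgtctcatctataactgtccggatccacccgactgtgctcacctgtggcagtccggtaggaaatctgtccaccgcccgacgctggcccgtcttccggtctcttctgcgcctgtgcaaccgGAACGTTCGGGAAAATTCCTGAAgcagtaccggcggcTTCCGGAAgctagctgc
The Hsph1 window (chr5:149636287-149636586, minus strand, the upstream of 2 annotated starts) holds 3 such pairs, of which the latter 2 overlap, and the Chordc1 window (chr9:18292017-18292316, plus strand) holds 5, of which 4 overlap in 1 run. One of the pairs, in either form, occurred in 10 of the 14 tested heat shock and cold-inducible genes with a window in the RefSeq promoter table (71.4%), against 4587 of all 27025 genes of that promoter table (17%). A match is a description of the window and was not tested for binding. Of the 3 annotated windows of Dnaja1, which are not printed, 1 holds a single pair and the other 2 hold none. Hspa8 has no window in it.

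Of 25 listed genes of cholesterol synthesis and uptake 15 fell, 1 rose and 9 did not pass, and the median change was -0.60. Mvd (chr8:122433601-122443422), mevalonate diphosphate decarboxylase, had 92.6, 68.8, 83 and 121 CPM at ZT16 and 19.9, 25, 21.2 and 31.6 CPM at ZT24. The lowest ZT16 library was above the highest ZT24 library, and Mvd fell by 1.85 ± 0.17 (adjusted p = 0.000261). Sqle (chr15:59315077-59331192), the squalene epoxidase that commits squalene to sterols, fell from 70.6, 51.8, 81.3 and 83.6 CPM to 17.9, 22.7, 17.1 and 25.3 CPM, by 1.74 ± 0.16 (adjusted p = 0.000261). Cyp51 (chr5:4081145-4104746), the lanosterol demethylase, fell from 386, 279.6, 316 and 317 CPM to 133, 116, 88.2 and 139.9 CPM, by 1.45 ± 0.14 (adjusted p = 0.000351). Groups did not overlap for any of the 3 genes.

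In the mevalonate part Idi1, Acat2 and Pmvk fell by 0.99, 0.86 and 0.73, and in the sterol part Hsd17b7, Dhcr7, Sc5d and Lss fell by 1.38, 1.17, 1.12 and 1.08. Fdps passed from levels of at most 2.26 CPM and is measured with few reads. The exception was Fdft1, squalene synthase, which rose by 0.38 ± 0.10 (adjusted p = 0.0468). Hmgcs1 and the regulator Srebf2 were among those that did not pass, with changes of 0.37 ± 0.19 and -0.00 ± 0.08. The count of falling members was 10 to 13 with 1 library left out and 7 when all 56 libraries were fitted together, and in the last of these Fdft1 did not pass. The call of Fdft1 was also lost without any 1 library but ZT24 replicate 1 (adjusted p up to 0.115), that of Acat2 without ZT16 replicate 1, 3 or 4 or ZT24 replicate 1 (up to 0.0735), and that of Fdps without any 1 of 5 libraries (ZT16 replicate 1, 3 or 4, ZT24 replicate 2 or 3, up to 0.0922).

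Windows of 2 of these genes are given with the CCAAT box, the site of nuclear factor Y, in capitals (ATTGG where it lies on the other strand).
Mvd: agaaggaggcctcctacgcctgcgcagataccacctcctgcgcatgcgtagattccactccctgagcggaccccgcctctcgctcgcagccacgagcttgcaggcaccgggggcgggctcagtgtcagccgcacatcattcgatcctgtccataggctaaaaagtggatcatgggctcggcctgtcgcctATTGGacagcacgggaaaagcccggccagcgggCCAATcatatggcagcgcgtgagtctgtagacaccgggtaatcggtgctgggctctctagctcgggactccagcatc
Cyp51: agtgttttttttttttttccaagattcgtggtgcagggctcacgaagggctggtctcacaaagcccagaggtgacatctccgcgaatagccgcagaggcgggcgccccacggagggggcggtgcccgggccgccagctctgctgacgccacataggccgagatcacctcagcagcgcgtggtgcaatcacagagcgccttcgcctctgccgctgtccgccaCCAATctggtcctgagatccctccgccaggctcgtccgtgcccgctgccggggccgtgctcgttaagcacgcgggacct
The Mvd window (chr8:122443373-122443672, minus strand) holds 2 CCAAT boxes and the Cyp51 window (chr5:4104648-4104947, minus strand) 1. A CCAAT box on either strand was found in 16 of the 17 tested cholesterol genes with a window (94.1%), in 11 of 15 de novo lipogenesis genes (73.3%), in 16 of 18 genes of the ER chaperone list (88.9%) and in 41.1% of all genes of the promoter table. The letters TCACNCCAC of a sterol regulatory element were found in 1 of the 17 cholesterol genes, Hmgcs1, and in 1.44% of all genes.

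Of the 17 tested genes of de novo lipogenesis 8 fell and none rose, with a median change of -0.47. Scd2 (chr19:44293674-44306864), a stearoyl-CoA desaturase, had 2483, 1833, 2286 and 2720 CPM at ZT16 and 502, 553, 418 and 666 CPM at ZT24. The groups were far apart, and Scd2 fell by 2.13 ± 0.16 (adjusted p = 7.92e-05). Acly, ATP citrate lyase, stood at 9745, 8154, 10060 and 11060 CPM at ZT16 and fell to 3299, 5751, 2357 and 5129 CPM at ZT24 without overlap, by 1.32 ± 0.29 (adjusted p = 0.0212). Mlxipl, which encodes the carbohydrate response element-binding protein ChREBP, fell from 316, 194, 240 and 247 CPM to 119, 127, 82.3 and 114 CPM, by 1.16 ± 0.16 (adjusted p = 0.00201, 0.082 with all 56 libraries in 1 fit). The elongase Elovl6, the acetyl-CoA synthetase Acss2, the desaturase Fads2, Pnpla3 and Elovl5 fell by 0.95, 0.72, 0.72, 0.69 and 0.45. Fasn and Acaca, fatty acid synthase and acetyl-CoA carboxylase, had changes of -0.45 ± 0.42 and -0.44 ± 0.23 and did not pass (adjusted p = 0.55 and 0.27). Srebf1, the SREBP gene of lipogenesis, changed by 0.14 ± 0.15 (adjusted p = 0.599), and Scd1 could not be resolved from the deposited values. The number of falling members was 3 to 7 with 1 library left out and 1 in the fit of all 56 libraries. The call of Acly was lost without ZT16 replicate 1, 3 or 4 (adjusted p up to 0.056) and with all 56 libraries in 1 fit (0.401). Those of Elovl6 and Elovl5 were lost without any 1 ZT16 library or ZT24 replicate 1 (up to 0.0902 and 0.0861), that of Acss2 without any 1 library but ZT24 replicate 2 (up to 0.0992), and that of Pnpla3 without ZT16 replicate 1 or ZT24 replicate 2, 3 or 4 (up to 0.074).

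**Figure D2:**
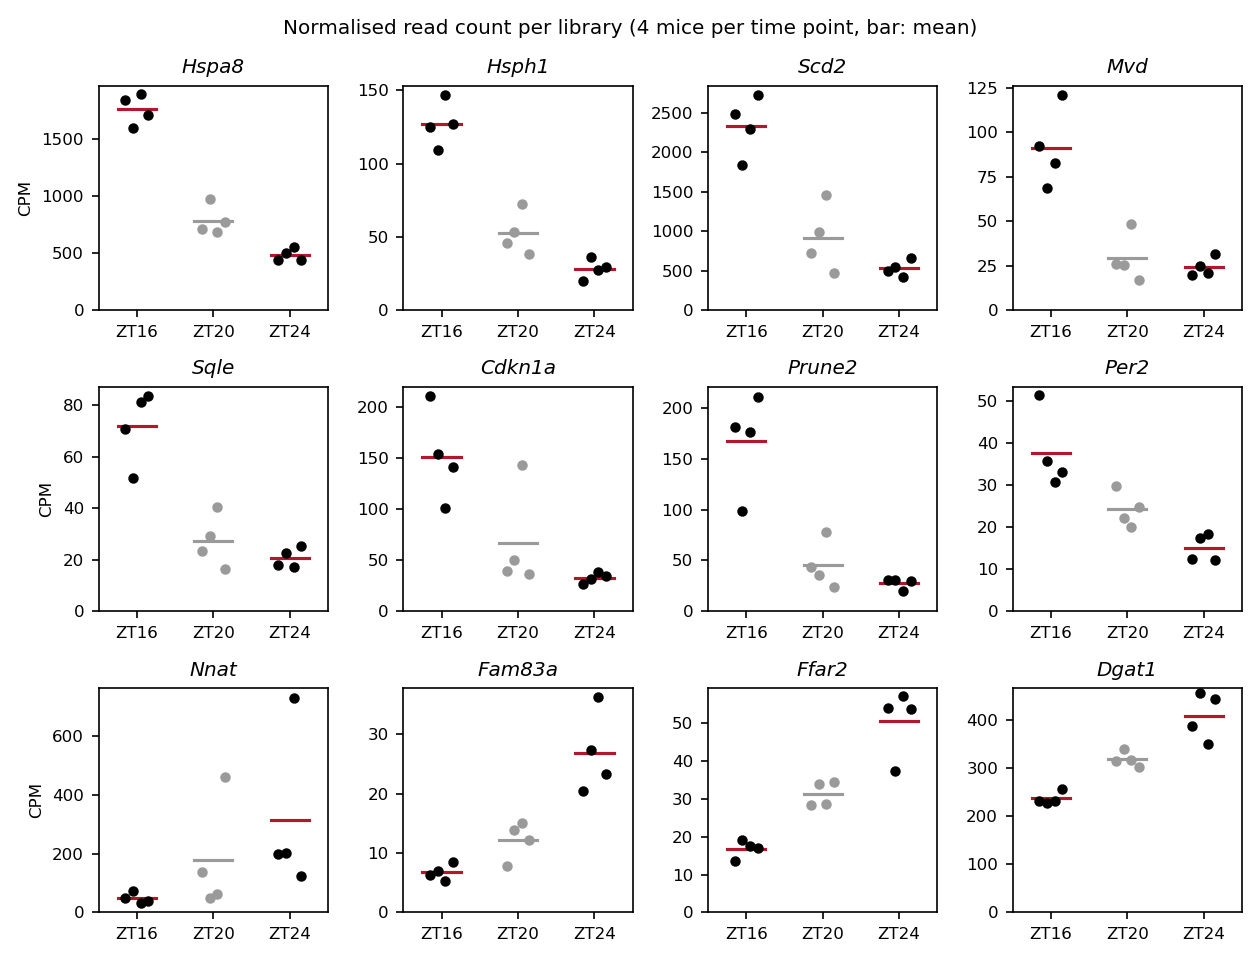
Normalised read count (CPM, vertical axis from 0) of 12 genes in each of the 4 libraries at ZT16, ZT20 and ZT24 under DRF, with the group mean as a bar and the ZT20 midpoint in grey. The ZT16 and ZT24 points do not overlap in any of the 12 genes, and 1 ZT20 library, replicate 3, stands high for Scd2, Mvd, Sqle, Cdkn1a and Prune2.

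Of 17 droplet coat and lipolysis genes 6 rose and none fell, with a median change of 0.30. The members that rose encode proteins that coat or fuse droplets or that restrain lipolysis. Plin1, perilipin 1, rose from 1264, 1400, 1303 and 1561 CPM to 1895, 2003, 2259 and 2102 CPM, by 0.58 ± 0.12 (adjusted p = 0.017). Cidec, which fuses droplets, rose from 2256, 2469, 1800 and 2155 CPM to 2978, 3472, 4787 and 3041 CPM, by 0.70 ± 0.18 (adjusted p = 0.0433). Plin4 rose by 0.63 ± 0.14 (adjusted p = 0.0219). G0s2, the inhibitor of adipose triglyceride lipase, had 190.5, 144, 152 and 189 CPM at ZT16 and 268, 221, 256 and 326 CPM at ZT24 and rose by 0.66 ± 0.13 (adjusted p = 0.012, but 0.134 in the fit of all 28 DRF libraries and 0.115 in that of all 56). Pde3b, the phosphodiesterase through which insulin blocks lipolysis, and Hilpda, a further lipase inhibitor, rose by 0.43 and 0.57. The lipases themselves did not pass, with changes of 0.17 ± 0.14 for Pnpla2 (adjusted p = 0.515), 0.34 ± 0.12 for Lipe (adjusted p = 0.104) and 0.18 ± 0.11 for Mgll (adjusted p = 0.353). The adrenergic receptor gene Adrb3 had a change of -0.11 ± 0.12 (adjusted p = 0.601).

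The summed level of the 8 adipocyte markers was higher at ZT24. It was 24550 to 29070 CPM at ZT16 and 31420 to 37730 CPM at ZT24, without overlap, and 2 of the 8, Plin1 and Cidec, rose while none fell. Of the 8 markers 6 are also members of the lipolysis list, and Adipoq, which is not, changed by 0.25 ± 0.14 (adjusted p = 0.297). The part of this shift in the result was not tested. In the 9 other marker lists the ranges of the sums overlapped and 1 gene passed, Hba-a2 of red cells, whose reads could be shared with its copy Hba-a1. The call of Hba-a2 (adjusted p = 0.0413) was lost without any 1 library but ZT16 replicate 2 and ZT24 replicate 1 (up to 0.103). The skeletal muscle sum was the most uneven, at 16.8 to 461 CPM at ZT16 and 34.6 to 368 CPM at ZT24. In bulk tissue more cells of a type and more RNA per cell cannot be told apart. The calls of the list dropped to between 2 and 5 with 1 library left out, to 2 with the deposited rescaling kept, to 1 with all 56 libraries in 1 fit and to 1 with ZT0 in place of ZT24. The call of Cidec was lost without any 1 of 7 of the 8 libraries (ZT24 replicate 1 was the exception, adjusted p up to 0.115) and with ZT0 (0.375), and that of Plin4 without ZT16 replicate 1, 3 or 4 (up to 0.0622), with all 28 DRF libraries in 1 fit (0.239) and with ZT0 (0.312). The call of Plin1 was lost without ZT16 replicate 1 (0.0657), and that of Hilpda without ZT16 replicate 1, 2 or 4 or ZT24 replicate 1 (up to 0.0608).

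**Figure D3:**
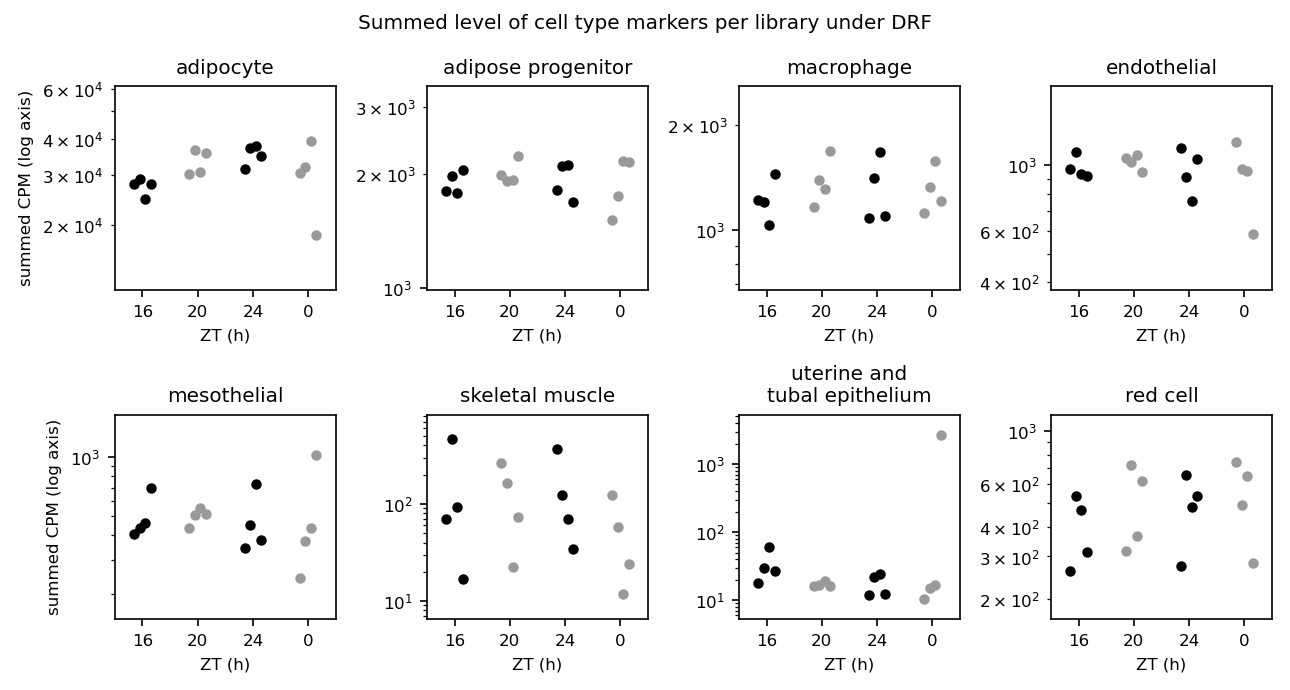
Summed CPM of 8 sets of cell type markers (vertical log axes) in each DRF library at ZT16, ZT20, ZT24 and ZT0, with the 2 compared groups in black. The adipocyte sum of every ZT24 library lies above every ZT16 library, the other sets overlap, and ZT0 replicate 4 stands at 2683 CPM for uterine and tubal epithelium.

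Re-esterification genes changed in both directions. In the triglyceride synthesis and glyceroneogenesis list 3 of 17 genes rose and 1 fell (median -0.02). Pck1, the key enzyme of glyceroneogenesis in fat, had 1129, 1265, 1167 and 1322 CPM at ZT16 and 2959, 1820, 2379 and 1702 CPM at ZT24 and rose by 0.83 ± 0.17 (adjusted p = 0.0167). Dgat1, which makes triglyceride from re-esterified fatty acid, rose from 232, 228, 233 and 257 CPM to 387, 456, 349.7 and 445 CPM, by 0.78 ± 0.10 (adjusted p = 0.00127). Slc27a1, a fatty acid transporter, rose by 0.73 ± 0.15 (adjusted p = 0.0168), and Agpat2, an acyltransferase of the synthesis route, fell by 0.62 ± 0.15 (adjusted p = 0.0312). Groups did not overlap for Pck1 or Dgat1. The call of Pck1 was lost without ZT16 replicate 1 (adjusted p = 0.0553), with the replicate block (0.0511), with no filter on low reads (0.0533) and in the fits of all 28 DRF and all 56 libraries (0.418 and 0.544), and that of Slc27a1 without ZT16 replicate 3 or 4 (up to 0.0532). The call of Agpat2 was lost without any 1 library but ZT16 replicate 2 and ZT24 replicate 4 (up to 0.0815). With all 56 libraries in 1 fit no gene of the list passed as lower. With ZT0 in place of ZT24 no gene of the list passed. When ZT0 replicate 4, which stood apart in its markers, was left out too, Dgat1 and Slc27a1 passed and Pck1 did not (adjusted p = 0.0505).

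Of 27 genes of fatty acid oxidation and the fasting response 3 rose, 1 fell and 23 did not pass. Acot4 and Acot2 were among the 3 that rose. Acot4, a peroxisomal acyl-CoA thioesterase, went from 14.6, 15.6, 17.8 and 17.7 CPM to 44.5, 50.7, 30.2 and 35.7 CPM and rose by 1.22 ± 0.14 (adjusted p = 0.000942). Acot2, a mitochondrial thioesterase, rose by 0.67 ± 0.08 (adjusted p = 0.00152). Angptl4, a lipoprotein lipase inhibitor known to rise in fasting, fell by 0.46 ± 0.12 (adjusted p = 0.0385), a call lost without any 1 library but ZT16 replicate 3 and ZT24 replicate 1 (up to 0.105). Pdk4, another fasting marker, had a change of -0.61 ± 0.24 (adjusted p = 0.152), and Cpt1a and Ppara changed by -0.02 and -0.24 without passing. The Acot genes lie side by side on chromosome 12 as close relatives, so reads could be shared among them.

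Slc2a4, the insulin-dependent glucose transporter GLUT4, fell from 667, 574, 566 and 642 CPM to 309, 452, 357 and 410.1 CPM, by 0.69 ± 0.12 (adjusted p = 0.00725), with no overlap, a call lost in the fits of all 28 DRF and all 56 libraries (0.145 and 0.233). Slc2a4 and Cited2 were the 2 of 23 genes of the insulin and FOXO list that fell, and none rose. The share called was 8.70%, near the 7.43% of all genes tested. At an unadjusted p under 0.05 in limma there were 12 of the 23, against 23.9% of all genes. Cited2, a transcriptional coregulator, fell by 0.56 ± 0.14 (adjusted p = 0.0332), a call lost without any 1 of 5 libraries (ZT16 replicate 1, 2 or 4, ZT24 replicate 1 or 4, adjusted p up to 0.092) and with ZT0 (0.238). The insulin receptor substrate gene Irs2, known to rise in fasting, had a change of 0.36 ± 0.16 (adjusted p = 0.185). With all 56 libraries in 1 fit no gene of the insulin list fell. In the glucose use and glycogen list 3 of 33 genes rose and 2 fell (15.2% called). Pygb and Gys1, glycogen phosphorylase and synthase, rose by 0.63 ± 0.13 (adjusted p = 0.0151) and 0.28 ± 0.08 (adjusted p = 0.045), and Ppp1r3e, a glycogen-targeting subunit of protein phosphatase 1, by 0.44 ± 0.09 (adjusted p = 0.0171). Pgd of the pentose phosphate pathway and the phosphofructokinase gene Pfkp fell by 0.59 ± 0.16 (adjusted p = 0.0442) and 0.43 ± 0.09 (adjusted p = 0.0141). The call of Ppp1r3e was lost without ZT16 replicate 1 (adjusted p = 0.0555) and with ZT0 (0.409), that of Pgd without any 1 library but ZT24 replicate 4 (up to 0.101) and with all 56 libraries in 1 fit (0.448), and that of Gys1 without any 1 library but ZT24 replicates 1 and 3 (up to 0.118). The list had 1 to 3 higher and 1 to 2 lower genes with 1 library left out, 1 higher and none lower with all 56 libraries in 1 fit, and none higher and 2 lower with ZT0.

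Amino acid genes were mixed. In the list of the ATF4 response 3 of 22 genes rose (Stc2, Psat1 and Asns, by 0.61, 0.53 and 0.30) and 2 fell (Psph and Aars, by 0.74 and 0.34). Psat1 and Psph are neighbouring steps of serine synthesis and moved in opposite directions. Psat1 had 130.1, 123, 118 and 139 CPM at ZT16 and 154, 204, 192 and 192 CPM at ZT24 (adjusted p = 0.00774). Psph had 62.4, 57.8, 67.2 and 66.8 CPM at ZT16 and 32.4, 45.9, 28.5 and 47.5 CPM at ZT24 (adjusted p = 0.0132, 0.154 with all 56 libraries in 1 fit), and with ZT0 in place of ZT24 Psat1 did not pass (0.453). In branched-chain amino acid catabolism 2 of 22 genes rose (9.09% called, near the 7.43% of all genes tested). These were Hibch by 0.32 ± 0.07 (adjusted p = 0.0248) and Bckdhb by 0.32 ± 0.06 (adjusted p = 0.012). The calls of Stc2 and Hibch were lost without any 1 of 4 and 5 libraries (ZT16 replicate 1, 3 or 4 or ZT24 replicate 4 for Stc2, and ZT16 replicate 1, 2 or 4 or ZT24 replicate 2 or 3 for Hibch, adjusted p up to 0.077 and 0.0732), and in the fit of all 28 DRF libraries (0.368 and 0.427). Asns lost its call without any 1 library but ZT24 replicates 1 and 2 (up to 0.0816), and Aars without any 1 library but ZT16 replicate 2 and ZT24 replicate 4 (up to 0.0848). The ATF4 list had 1 to 5 higher and 1 to 2 lower genes with 1 library left out, and 1 higher and none lower with all 56 libraries in 1 fit. In the branched-chain list no gene passed with the deposited rescaling kept, with all 56 libraries in 1 fit or with ZT0, and Bckdhb had a change of 0.07 with ZT0 (adjusted p = 0.824).

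Some chaperones of the endoplasmic reticulum (ER) fell too. Of 20 genes of the ER list 6 fell, 1 rose and 13 did not pass (median -0.20). Hspa5, the ER HSP70 also called BiP, fell from 432, 417, 479 and 494 CPM to 268, 266, 286 and 296 CPM, by 0.70 ± 0.08 (adjusted p = 0.000952). The ER stress protein Manf fell by 0.62 ± 0.10 (adjusted p = 0.00498) and the HSP70-like Hyou1 by 0.50 ± 0.06 (adjusted p = 0.00163). Creld2, Dnajc3 and Dnajb11 fell by 0.46, 0.41 and 0.25, while the ubiquitin ligase gene Syvn1 rose by 0.26 ± 0.07 (adjusted p = 0.045). For Hspa5 and Hyou1 the groups did not overlap, and with ZT0 in place of ZT24 Manf and Hyou1 did not pass (adjusted p = 0.128 and 0.0953). The calls of Syvn1 and Dnajb11 were lost in every fit without 1 library (adjusted p up to 0.119 and 0.11), and that of Creld2 without any 1 library but ZT16 replicate 3 (up to 0.0934), with 0 to 1 higher and 4 to 5 lower genes in these fits. The stress transcription factor gene Xbp1 changed by 0.26 ± 0.12 (adjusted p = 0.223).

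Of 21 listed genes of the glucocorticoid receptor and its targets 3 fell and none rose. Cdkn1a (chr17:29090976-29100727), the cell cycle inhibitor p21, had 209.9, 154, 101 and 141 CPM at ZT16 and 26.8, 31.5, 38.7 and 34.2 CPM at ZT24 and fell by 2.13 ± 0.18 (adjusted p = 0.000198). Fkbp5, a cochaperone and glucocorticoid target, had 230.1, 158, 66.7 and 103 CPM at ZT16 and 36.9, 45.7, 56.6 and 27.8 CPM at ZT24. The ZT16 libraries were widely spread but stayed above those of ZT24, and Fkbp5 fell by 1.62 ± 0.32 (adjusted p = 0.0137). Zbtb16 fell by 0.69 ± 0.18 (adjusted p = 0.0455), a call lost without any 1 of 5 libraries (ZT16 replicate 1 or 4, ZT24 replicate 1, 2 or 4, adjusted p up to 0.114) and in the fit of all 28 DRF libraries (0.426). Tsc22d3 (GILZ) and Sgk1, known glucocorticoid targets too, had changes of -0.64 ± 0.31 and 0.26 ± 0.22 and did not pass, and the receptor gene Nr3c1 changed by 0.07 ± 0.09. Among 24 immediate early genes 2 fell and none rose (8.33% called, near the 7.43% of all genes tested). Fosl2 fell by 0.38 ± 0.07 (adjusted p = 0.0106, 0.381 with all 56 libraries in 1 fit), and Atf3 fell by 0.73 ± 0.20 (adjusted p = 0.0468) with overlapping groups, a call lost without any 1 library but ZT16 replicate 1 and ZT24 replicate 2 (up to 0.12). No immediate early gene passed with all 56 libraries in 1 fit. With ZT0 in place of ZT24 the list turned, with 2 genes higher, none lower and a median of 0.64 against -0.16, and Fosl2 had a change of 0.67 (adjusted p = 0.356).

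Of the 21 clock and PAR bZIP output genes 2 fell, none rose and 19 did not pass (9.52% called, against 7.43% of all genes tested in either direction). At an unadjusted p under 0.05 in limma there were 11 of the 21, against 23.9% of all genes. The ATF4 and ER lists had 12 of 22 and 11 of 20 at that limit. The immediate early and branched-chain lists had 10 of 24 and 6 of 22. Per2 (chr1:91415982-91459324), a repressor of the loop, had 51.3, 35.7, 30.6 and 33 CPM at ZT16, 29.9, 22.2, 20.1 and 24.8 CPM at ZT20 and 12.3, 17.5, 18.2 and 12.2 CPM at ZT24. Its ZT24 libraries were all below those of the other time points, and Per2 fell by 1.26 ± 0.17 (adjusted p = 0.00212). With ZT0 in place of ZT24 the change of Per2 was -0.91 and did not pass (adjusted p = 0.0937). Without ZT0 replicate 4 it was -0.82 (0.0803). Clock fell from 102, 95.5, 102 and 94.1 CPM to 76.1, 62.5, 72.4 and 81.2 CPM, by 0.43 ± 0.08 (adjusted p = 0.0121). Arntl, the partner of Clock, had 15.9, 10.9, 8.47 and 9.61 CPM at ZT16 and 22.5, 14.7, 17.1 and 16.4 CPM at ZT24, with a change of 0.63 ± 0.18 that missed the threshold (adjusted p = 0.0535). Dbp, a PAR bZIP output gene, had 11.4, 19.3, 24.1 and 27.5 CPM at ZT16 and 19.3, 61, 42 and 40.6 CPM at ZT24, overlapping in 1 ZT24 library, with a change of 0.91 ± 0.32 (adjusted p = 0.105). Arntl passed in 6 of 23 alternatives (lowest adjusted p = 0.0169, without ZT16 replicate 1) and Dbp in 5 of 23 (lowest 0.00821, with ZT0 in place of ZT24 and without ZT0 replicate 4), always as rises. With 1 library left out 0 to 2 clock genes rose and 2 to 3 fell, with the replicate block 2 rose and 2 fell, and with ZT0 in place of ZT24 2 rose and 1 fell.

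The remaining 17 genes did not pass. Of the repressors, Per1 changed by 0.12 ± 0.23, Per3 by 0.06 ± 0.10, Cry1 by -0.25 ± 0.15, Cry2 by -0.24 ± 0.07, Nr1d1 by -0.43 ± 0.16 and Nr1d2 by -0.42 ± 0.13. Of the activators and PAR bZIP genes, Npas2 changed by 0.41 ± 0.21, Rora by 0.10 ± 0.09, Tef by -0.04 ± 0.09 and Hlf by -0.21 ± 0.09. Bhlhe40, Bhlhe41, Nfil3, Ciart, Usp2 and Nampt had changes of 0.67, 0.32, 0.35, 0.07, 0.12 and -0.18. Adjusted p-values of these 17 genes ran from 0.0663 (Cry2) to 0.847 (Tef), and their SEs were at most 0.23.

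The 10 largest rises took in genes of several kinds. They, and the 10 falls below, were ranked among called genes whose groups did not overlap. A mean log2(CPM + 1) of at least 2 was required, and predicted and unnamed genes were left out. Nnat (chr2:157560078-157562522), an imprinted proteolipid gene of the adipokine and hormone list, had 48.9, 72.9, 32.8 and 38.8 CPM at ZT16 and 199.9, 201.3, 729.5 and 123.9 CPM at ZT24 and rose by 2.39 ± 0.44 (adjusted p = 0.00952). Its ZT24 libraries differed among themselves by more than 5 times, and all were above ZT16, which the rule for these 10 genes required. The call of Nnat was lost in the fits of all 28 DRF and all 56 libraries and with ZT0 in place of ZT24 (adjusted p = 0.145, 0.0828 and 0.0682). Fam83a had 6.35, 6.89, 5.31 and 8.52 CPM at ZT16 and 20.4, 27.3, 36.2 and 23.3 CPM at ZT24 and rose by 1.82 ± 0.17 (adjusted p = 0.000291). Ffar2, a receptor for short-chain fatty acids that inhibits lipolysis, had 13.5, 19.2, 17.5 and 16.9 CPM at ZT16 and 53.8, 37.2, 57.1 and 53.8 CPM at ZT24 and rose by 1.53 ± 0.14 (adjusted p = 0.000261). The small G protein gene Rasd1 and Pmepa1, a brake on TGF-beta signalling, rose by 1.61 ± 0.25 (adjusted p = 0.00438) and 1.53 ± 0.22 (adjusted p = 0.00316). Peg3 and Zim1, neighbours in an imprinted domain of chromosome 7, rose by 1.52 ± 0.29 (adjusted p = 0.0113, 0.0525 with all 56 libraries in 1 fit) and 1.56 ± 0.23 (adjusted p = 0.00327). Crtac1, Adamts16 and Srgap3 completed the 10, with rises of 1.53, 1.44 and 1.33.

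The 10 largest falls included Mvd, Sqle, Scd2, Hsph1, Hspa8 and Cdkn1a, described above. Prune2 (chr19:16956118-17223932) fell most, from 181, 99, 177 and 211 CPM to 30.4, 31.1, 19.7 and 29.5 CPM, by 2.52 ± 0.21 (adjusted p = 0.000185). Hephl1, a copper-dependent ferroxidase, fell from 112, 69.8, 99.1 and 122 CPM to 22.5, 20.4, 11.9 and 29.8 CPM, by 2.24 ± 0.24 (adjusted p = 0.000544). Cyp26b1, which degrades retinoic acid, fell by 2.21 ± 0.54 (adjusted p = 0.0332) with ZT16 values of 19.8 to 84.5 CPM and ZT24 values of 1.92 to 19.2 CPM. Its call was lost without any 1 of 5 libraries (ZT16 replicate 1, 2 or 4, ZT24 replicate 2 or 3, adjusted p up to 0.0817). Pdzk1ip1 fell by 1.81 ± 0.19 (adjusted p = 0.000555), but its change was -0.89 with ZT0 in place of ZT24 and did not pass (adjusted p = 0.507). With ZT0 replicate 4 left out of that fit Pdzk1ip1 passed.

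In collagens and matrix 2 of 25 genes fell and none rose (8% called, near the 7.43% of all genes tested). An unadjusted p under 0.05 in limma was reached by 3 of the 25. P4ha1, the prolyl hydroxylase of collagen, was tightly measured at 72.5, 70.7, 75.6 and 77.2 CPM at ZT16 and 29.4, 36, 37.1 and 31.1 CPM at ZT24 and fell by 1.13 ± 0.08 (adjusted p = 7.92e-05). Timp3, a metalloproteinase inhibitor, fell from 233, 231, 225 and 217 CPM to 147, 165, 138 and 143 CPM, by 0.61 ± 0.07 (adjusted p = 0.00108). Col1a1 and Col3a1 changed by 0.06 ± 0.15 and 0.25 ± 0.14 without passing. Of 24 ribosome biogenesis genes 2 fell (8.33%), Utp20 by 0.37 ± 0.09 (adjusted p = 0.0295) and Ddx21 by 0.30 ± 0.08 (adjusted p = 0.0351), and both calls were lost in fits without 1 library (5 and 6 of the 8, adjusted p up to 0.0836 and 0.0883). None of 46 cytosolic ribosomal protein genes, 30 autophagy and lysosome genes, 18 proliferation genes or 12 thermogenic genes passed in limma, with medians of 0.17, 0.0072, -0.07 and -0.05. At an unadjusted p under 0.05 there were 7, 2, 5 and 1 genes in these 4 lists, and limma voom called none of them. Without ZT24 replicate 1, 4 ribosomal protein genes were called higher and 1 proliferation gene lower, without ZT16 replicate 4 and with all 56 libraries in 1 fit 1 ribosomal protein gene was higher, and without ZT24 replicate 2 or 3 1 proliferation gene was higher. The autophagy and thermogenic lists had no call in any fit without 1 library. Of the other adipokine and hormone genes, Lep had 349.5 to 849.6 CPM at ZT16 and 388 to 1247 CPM at ZT24, overlapping widely (change 0.23 ± 0.34, adjusted p = 0.733).

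The midpoint at ZT20 lay between both ends for most of the called genes. The ZT20 mean fell between the ZT16 and ZT24 means for 89.2% of the 1273 genes, beyond the ZT24 mean for 123 of them and on the far side of the ZT16 mean for 14. The median share of the change reached at ZT20 was 63.8% for the genes that rose and 67.4% for those that fell. Cholesterol genes that passed had reached a median of 80.4%, with 14 of 16 past the halfway mark, and heat shock genes 72.2%, with all 10 past it. Of all 1273 called genes 75.3% were past that mark. Called genes of other lists had medians of, for example, 81.1% (ATF4 response, 5 genes), 51.6% (lipolysis, 6 genes) and 50.1% (ER chaperones, 7 genes). The medians were 46.0% for the 4 called genes of fatty acid oxidation and 23.7% for the 2 called immediate early genes. Mvd, for example, was at 25.9, 25.8, 48.6 and 17.2 CPM at ZT20, with 3 libraries within or below the range of ZT24, whereas Hspa8, at 709, 969.9, 689.5 and 773 CPM, lay between the groups in every library. ZT20 replicate 3 was the highest of its group for Scd2 (1454 of 468 to 1454 CPM), Cyp51, Mvd, Sqle, Cdkn1a, Prune2 and Hephl1, and the ZT20 means of these genes rest on it in part. These shares have no test, because the called genes were chosen by their ends.

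**Figure D4:**
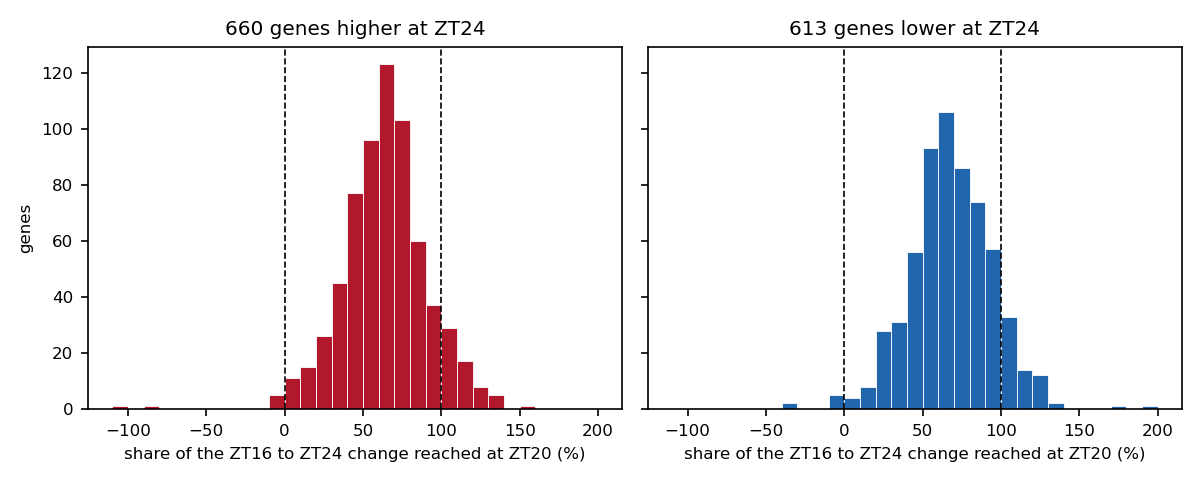
Histograms of the share of the ZT16 to ZT24 change that the ZT20 mean had reached (horizontal axis, %), for the 660 genes that rose and the 613 that fell (vertical axis, number of genes). Dashed lines mark the ZT16 mean (0) and the ZT24 mean (100), and 89.2% of the genes lie between them.

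The same span of food-free time in the light phase, NRF ZT4 to ZT12, was tested in the same way. Under NRF 898 genes rose and 770 fell, or 9.63% of 17318 tested. The difference between both changes, tested as an interaction over the 16 libraries, passed for 1620 of 18136 genes (8.93%), of which 801 had the more positive change under DRF and 819 under NRF. That split turned to 1166 and 609 with total reads as library size and to 542 and 1188 with the deposited rescaling kept, and the count was 1046 without DRF ZT16 replicate 1 and 1061 without NRF ZT12 replicate 2. Of the 1273 genes called under DRF, 184 were also called with the same sign under NRF and 73 with the opposite sign, and the difference passed for 426. Light and dark, and the phase of the clock, differ between both intervals along with the regimen and cannot be told apart from it.

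Clock genes gave more calls under NRF. There 15 of the 21 genes rose and 4 fell between ZT4 and ZT12, and the difference passed for 18 of 21. Per2 went from 5.19, 1.42, 4.14 and 2.96 CPM to 60.8, 70.8, 65 and 66 CPM under NRF, a rise by 3.99 ± 0.24 against the fall under DRF (difference -5.25 ± 0.32, adjusted p = 2.93e-08). Arntl went from 26.9, 28.3, 22.4 and 20.8 CPM to 0.532, 0.767, 0.698 and 0.757 CPM (change -3.91 ± 0.12, difference 4.55 ± 0.23, adjusted p = 2.09e-09). Dbp went from 10.2, 14.3, 11.9 and 12.8 CPM to 264, 260.2, 255 and 243 CPM (change 4.28 ± 0.09, difference -3.37 ± 0.38, adjusted p = 6.7e-05). Hlf and Tef had the smallest adjusted p-values for the difference, with differences of -3.43 and -2.88 (adjusted p = 5.44e-11 and 6.14e-11). Nr1d1 and Bhlhe40 were among the 3 members whose difference did not pass.

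**Figure D5:**
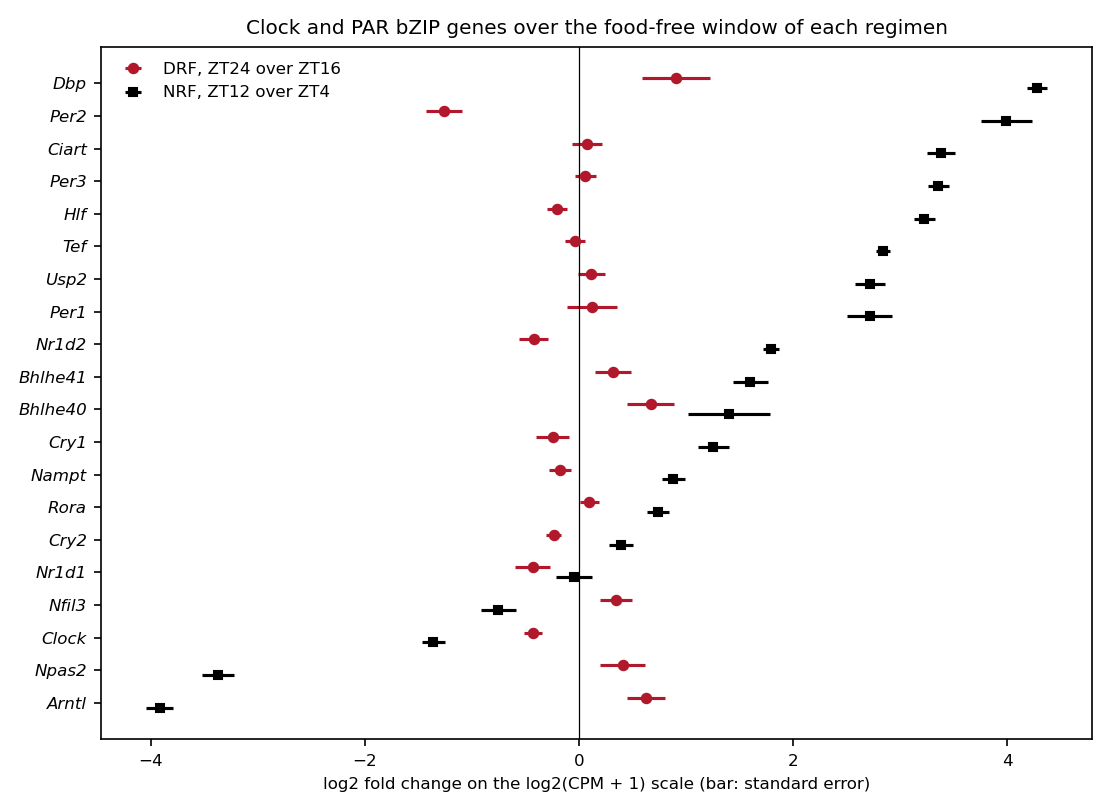
Log2 fold change (horizontal axis, log2(CPM + 1) scale, bars are standard errors, n = 4 per group) of 20 of the 21 clock and PAR bZIP genes for DRF ZT24 over ZT16 (red circles) and NRF ZT12 over ZT4 (black squares). DRF changes lie between -1.26 and 0.91, and NRF changes between -3.91 and 4.28.

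Heat shock genes differed as well. The difference passed for 9 of 19 genes, with the more negative change under DRF in 8. Hspa8 had 714, 506, 893 and 556 CPM at NRF ZT4 and 755, 472, 521 and 635 CPM at NRF ZT12 (change -0.15 ± 0.20), levels nearer to DRF ZT24 than to DRF ZT16, and its difference was -1.72 ± 0.24 (adjusted p = 0.000437). Hsph1 had a difference of -1.65 ± 0.31 (adjusted p = 0.00424), and that of Dnaja1 passed too (adjusted p = 0.00291). Among the glucocorticoid receptor and its targets the difference passed for 7 of 21, all with the more negative change under DRF. Fkbp5 rose under NRF from 26.9, 12.4, 22.1 and 13.7 CPM to 116, 45.2, 56.8 and 79.2 CPM (1.91 ± 0.30), a difference of -3.52 ± 0.50 (adjusted p = 0.000473). Zbtb16 rose under NRF too (1.05 ± 0.25), a difference of -1.74 ± 0.35 (adjusted p = 0.00589).

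For lipid genes the contrast depended on the gene. Of the cholesterol list the difference passed for 6 of 25, and Cyp51 was one of the 5 with the more negative change under DRF (-1.79 ± 0.39, adjusted p = 0.00928). For Mvd, Sqle and Scd2 the differences were -1.51 ± 0.50, -1.37 ± 0.50 and -1.24 ± 0.79 and did not pass (adjusted p = 0.066, 0.0958 and 0.345). The NRF libraries of Scd2 were widely spread, at 88.2 to 1037 CPM at ZT4. G0s2 and Hilpda had changes of -0.60 ± 0.19 and -0.58 ± 0.13 under NRF, and their differences of 1.26 ± 0.25 (adjusted p = 0.00557) and 1.15 ± 0.18 (adjusted p = 0.000969) passed. Ffar2, at 24.2 to 72.8 CPM at NRF ZT4 and 16.2 to 38.8 CPM at NRF ZT12, differed by 2.40 ± 0.39 (adjusted p = 0.00138). Dgat1 rose in both intervals, by 0.78 ± 0.10 under DRF and 0.80 ± 0.08 under NRF (adjusted p = 0.000396), and the difference was -0.02 ± 0.12 (adjusted p = 0.937). Acot4 rose in both as well (1.59 ± 0.20 under NRF, difference -0.37 ± 0.27, adjusted p = 0.417).

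The 4 ZT0 libraries of DRF were labelled with the same clock time of day as ZT24. No gene passed between ZT24 and ZT0 in limma (0% of 17239 genes, 808 at an unadjusted p under 0.05), nor in limma voom. One of the ZT0 libraries, replicate 4, stood apart, with 2683 CPM of summed uterine and tubal epithelium markers against 10.4 to 61.1 CPM in the other DRF ZT0, ZT16, ZT20 and ZT24 libraries, and with the lowest adipocyte sum (18380 CPM). With ZT0 in place of ZT24 against ZT16, 322 genes were higher and 352 lower, and without that library 886 and 752. With all 4 ZT0 libraries, 204 of the 660 higher and 235 of the 613 lower genes passed again in the same direction, and 25 of the 1273 called genes had the opposite sign. Hspa8, Hsph1, Scd2, Mvd, Sqle, Cyp51 and P4ha1 passed in the same direction with ZT0, at ZT0 levels of, for example, 403, 648, 629.5 and 593 CPM for Hspa8. Of the 56 called genes that the rule named, 23 did not pass with ZT0 and 9 did not pass when replicate 4 was left out too. The 23 included Nnat, Pdzk1ip1, Cidec, Plin4, Pck1, Dgat1, Slc27a1, Per2, Fosl2, Pygb, Psat1, Hibch, Bckdhb, Manf, Hyou1 and Hspa1a. Bhlhe40 reached 33, 294, 175 and 239.5 CPM at ZT0 against 32.7 to 75.5 CPM at ZT24, high in 3 of the 4 libraries.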

How the data were processed

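Polyadenylated RNA was sequenced as paired reads, and the submitters' processing notes name HISAT2 2.0.5, featureCounts 1.5.0-p3 and the mm10 build. The deposited table, labelled TPM by the authors, holds a score: log2(1 + CPM) per gene length, rescaled for each library. Every value of at most 10000 reads that was tested came out whole within 0.02 reads after this was undone (100% of 1262086 values). Gene lengths were accepted by this wholeness, and for 882 genes the length was itself taken from the values. The 100% is thus in part set by the method. One of the 25939 genes, Scd1, was not resolved, and for 4 (Fabp4, Car3, Fasn and mt-Co1) wholeness could not be tested. Reads were scaled to CPM by the effective library sizes. They were tested as log2(CPM + 1) in limma 3.58.1 with an intensity trend (R 4.3.3). Genes with at least 10 reads in 4 libraries of the fit were tested, with Benjamini-Hochberg adjustment over all genes tested. The design had assumed deposited TPM, and the fit was made on the recovered values. Whether each library is 1 mouse is not given in the sources used here, so p-values measure only the spread between these samples.

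Named genes were the 10 largest rises and falls among called genes with a mean log2(CPM + 1) of at least 2 and groups that did not overlap (predicted and unnamed genes left out), the 3 largest called changes of each of 21 lists, and all clock genes. Other genes in the text are list members given for their role. Members and lists were chosen with earlier results of these data known. The alternatives were other library sizes, filters, pseudocounts and fits, a replicate block, each library left out, and ZT0 in place of ZT24 (the last also without DRF ZT0 replicate 4, chosen after seeing the data). Promoter sequences are from RefSeq on GRCm38.p6, the assembly of mm10. The test was tried on simulated data, and the outcome is not given here. Some genes of the lists are counted but not reported here by name.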

Additional observations from a re-analysis of the deposited data

Results flagged for a closer look

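In 5 of the 170 groups of 4 libraries checked, 1 library stood far from the other 3. The groups were of the named genes and of the sums of cell type markers, and all 5 were of named genes. Distance was measured as the gap to the nearest library over the whole range, against Dixon's 95% critical value. Chance alone gives about 1 such group in 20. The share was 0.862 for Ffar2 in DRF ZT24 replicate 2, which was low at 5.26 on the log2(CPM + 1) scale. It was 0.917 for Adamts16 in DRF ZT16 replicate 1 (1.13), 0.885 for Prune2 in ZT24 replicate 3 (4.37), 0.907 for Per3 in ZT24 replicate 4 (5.42) and 0.907 for Manf in ZT16 replicate 4 (5.80). Leaving that library out lost the call of none of Ffar2, Adamts16, Prune2 or Manf, and Per3 was not called.

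For 37 named genes the change from DRF ZT16 to ZT24 differed from that between NRF ZT4 and ZT12 in the limma interaction test. Differences below are DRF minus NRF on the log2(CPM + 1) scale, and none was followed up. Among the largest rises and falls they were 2.73 for Nnat, 1.31 for Rasd1, 2.54 for Zim1, -1.14 for Crtac1, 2.40 for Ffar2, 2.56 for Peg3, 3.31 for Adamts16, 1.69 for Srgap3, -1.91 for Prune2, -1.65 for Hsph1, -1.04 for Cdkn1a and -1.72 for Hspa8. Adjusted p-values of these 12 ran from 0.000106 (Adamts16) to 0.0466 (Cdkn1a). Crtac1 rose in both intervals and more under NRF.

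Of the other gene lists, the differences were 1.26 for G0s2, -1.79 for Cyp51, -3.52 for Fkbp5, -1.74 for Zbtb16, -1.28 for Hspa1a, -0.93 for P4ha1 and -1.68 for Timp3, with adjusted p-values from 3.28e-07 (Timp3) to 0.00928 (Cyp51). In the clock list the differences were positive for Arntl (4.55), Npas2 (3.78), Nfil3 (1.10) and Clock (0.93). They were negative for Per1 (-2.59), Per2 (-5.25), Per3 (-3.30), Cry1 (-1.50), Cry2 (-0.63), Nr1d2 (-2.22), Rora (-0.64), Dbp (-3.37), Tef (-2.88), Hlf (-3.43), Bhlhe41 (-1.28), Ciart (-3.31), Nampt (-1.06) and Usp2 (-2.60).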

How the results depend on the processing

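The main counts were 660 higher and 613 lower genes between ZT16 and ZT24 and 1620 genes whose change differed from NRF. At an adjusted p under 0.01 they were 185, 156 and 522. A minimum change of 0.5 gave 360 and 315, no filter on low reads 371 lower genes, and the fit of all 28 DRF libraries 430 and 329. ZT0 libraries in place of ZT24 gave 322 and 352. Leaving out 1 library gave 355 to 622 higher and 299 to 515 lower genes and 1046 to 1766 differences. The numbers of replicates did not pair the libraries (correlations of the deviations of same-numbered libraries of 0.0359, 0.0587, -0.291 and 0.183), and with a replicate block 389 higher and 370 lower genes passed. Both other pseudocounts, a stricter filter, total reads or median of ratios as library size, limma without the trend and limma voom left these 3 counts within 1.5 times. Of the 56 named genes called, 32 lost the call in at least 1 alternative, 19 of them with all 28 DRF libraries, 22 with all 56, 11 with the replicate block and 23 with ZT0, and 2 reversed, both with ZT0 libraries in place of ZT24: Atf3 had a change of 0.0302 (0.0384 without DRF ZT0 replicate 4) and Fosl2 of 0.665 (0.2513 without it), and the cause was not tested. Of the named genes not called, 4 (Tef, Per1, Per3 and Ciart) changed sign in at least 1 alternative. No gene passed between ZT24 and ZT0 under any alternative run.

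Fold changes of genes near 1 CPM are understated by the added 1 CPM. Time without food, clock time and darkness cannot be told apart in these groups.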

Other observations

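Because Nnat, Zim1 and Peg3 are imprinted (expressed from 1 parental allele), a list of 41 imprinted genes was added after their values were seen, and it supports no claim of its own. Of the 37 tested, 6 rose between DRF ZT16 and ZT24 and none fell in limma, against 3.85% and 3.58% of all genes tested. The 6 include the 3 genes that prompted the list, so the count is not independent of that choice. Besides the 3 above these were Plagl1 (0.93 ± 0.15, adjusted p = 0.00478), a zinc finger regulator of growth, Blcap (0.45 ± 0.12, adjusted p = 0.0373), in whose intron Nnat lies, and Inpp5f (0.31 ± 0.08, adjusted p = 0.0397). The calls of Blcap and Inpp5f were lost without any 1 of 6 and 7 of the 8 libraries (adjusted p up to 0.0991 and 0.0958) and with ZT0 in place of ZT24 (0.327 and 0.068). The median change of the list was 0.09. Between NRF ZT4 and ZT12 none of them rose and 5 fell, against 898 and 770 of all 17318 genes tested. H19, Igf2 and Meg3 had changes of -0.15 ± 0.39, -0.11 ± 0.11 and -0.20 ± 0.28 and did not pass.

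Some further genes were singled out after their values were seen, from no fixed list, and they support no claim about a pathway. Hcar1, the lactate receptor that inhibits lipolysis, had 68.9, 111, 95.2 and 88.5 CPM at ZT16 and 177, 180.5, 129 and 206 CPM at ZT24 and rose by 0.92 ± 0.16 (adjusted p = 0.00667). Prkar2b, a regulatory subunit of protein kinase A, rose by 1.01 ± 0.10 (adjusted p = 0.000409). Lgals12, a lipid droplet galectin, and Tmem120a, a nuclear envelope protein of adipocytes, rose by 0.99 ± 0.08 (adjusted p = 0.000185) and 1.29 ± 0.11 (adjusted p = 0.000198). Acsl1, which activates fatty acids, rose by 0.95 ± 0.17 (adjusted p = 0.0092), and the acyl-CoA dehydrogenase gene Acad11 by 0.90 ± 0.08 (adjusted p = 0.000261). Acsl1, Acad11, Prkar2b, Lgals12 and Tmem120a also rose between NRF ZT4 and ZT12, and their differences between both intervals did not pass. With ZT0 in place of ZT24 the calls of Acsl1 (change 0.79, adjusted p = 0.104), Hcar1 (0.62, 0.0722) and Prkar2b (0.70, 0.0646) were lost.

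Fbn1, which encodes the precursor of fibrillin 1 and of the hormone asprosin, rose by 0.93 ± 0.18 under DRF (adjusted p = 0.0125) and had a change of -1.58 ± 0.19 under NRF (adjusted p = 0.000914), with a difference of 2.51 ± 0.29 (adjusted p = 0.000103). Cyp1a1, a target of the aryl hydrocarbon receptor, fell by 1.72 ± 0.38 (adjusted p = 0.0223), a call lost without ZT16 replicate 4 (0.0554). Gapdh had 4.32, 3.38, 110.1 and 212 CPM at ZT16 and 171, 76.1, 8.96 and 179.8 CPM at ZT24. Many processed copies of Gapdh exist in the mouse genome, so its reads could be divided among them in counting, and its value is uncertain.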
